A study of Mus musculus with 12 samples.

Results

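White adipose tissue (WAT) of mice on a high-fat diet (HFD) was compared with WAT of mice on a normal chow diet (NCD), both given vehicle (veh). Of the 12 libraries of the series, 2 carry this comparison, 1 for each diet, and 12208 of the 22276 gene symbols reached 1 FPKM in at least 1 of them. FPKM is a level of RNA per gene, corrected for transcript length and for the depth of the library. The mice were male C57BL/6J, a common laboratory strain that becomes obese on HFD. They were fed NCD or HFD from 8 to 17 wk of age, and all received weekly gavage from 10 wk, with vehicle in NCD-veh and HFD-veh mice. WAT of HFD-ncls mice, which received narciclasine (ncls, a plant alkaloid) on HFD, is given beside them as values. It shares the NCD-veh library as its control. Total RNA was extracted with TRIzol once connective and surrounding tissue had been taken off, and was sequenced on an Illumina platform. How many mice each library stands for, and which fat depot it came from, is not given in the sources used here. With 1 library per group there is no replicate, so no spread between animals and no test stand behind any value below, and each difference is one between these libraries.

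White fat stores triglyceride in large adipocytes and secretes hormones such as leptin and adiponectin that report the size of the store. When energy intake exceeds need, adipocytes enlarge, new adipocytes form from stromal precursors, and the matrix around them is remodelled. Obese fat also gains macrophages, many of which surround dying adipocytes, take up their lipid and build up a large lysosomal compartment. In a bulk tissue library, fewer cells of a type and less RNA per cell cannot be told apart.

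From the FPKM steps of low genes with a single annotated transcript, the NCD-veh library held about 20400000 fragments, the HFD-veh library 19900000 and the HFD-ncls library 18300000. These depths are approximate. Between 11786 and 12052 genes reached 1 FPKM in each library. All libraries carried the defining adipocyte genes at high levels. Fabp4, a fatty acid carrier of adipocytes, was at 12720.3 FPKM in NCD-veh and 12381 in HFD-veh (11212 in HFD-ncls). Adipoq, which encodes adiponectin, was at 2849 FPKM in NCD-veh and 1692 in HFD-veh (1599.8 in HFD-ncls). Markers of other tissues differed between the libraries in places. Of 24 liver markers, 8 were listed at 0 in NCD-veh and none in HFD-veh, and the liver-enriched genes are described below. Ucp1, the uncoupling protein of brown fat, was at 2.86 FPKM in NCD-veh and 2.38 in HFD-veh (3.92 in HFD-ncls). None of 14 genes of the epididymal duct reached 1 FPKM, and 12 of them were listed at 0 in NCD-veh. Of 14 skeletal muscle markers, 6 reached 1 FPKM in NCD-veh or HFD-veh.

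Ratios were taken as log2 of HFD-veh over NCD-veh after adding 0.1 to each FPKM. HFD-veh was over 2-fold higher than NCD-veh for 640 genes, 5.24% of those kept, and over 2-fold lower for 472, 3.87%. Counts in the gene lists below are to be read beside these shares. The median log2 ratio was 0.028, with quartiles of -0.25 and 0.32, and the Pearson r of log2 FPKM across the genes was 0.935. The filter fixed the direction of some genes, since 381 reached 1 FPKM in HFD-veh alone and had to be higher there, and 422 in NCD-veh alone and had to be lower in HFD-veh. Differences over 4-fold were found for 153 higher and 54 lower genes. Genes that liver or muscle expresses far above the other organs were marked apart, when their mean in that organ was 10 FPKM or more and also 20 or more times their median over the 9 libraries from elsewhere. Genes such as Alb that have values in every organ but liver were counted as liver-enriched too. Without the 221 liver-enriched genes kept in WAT, 4.79% of 11987 genes were higher and 3.65% lower. The same diets in other organs, each with 1 library, gave 2.28% higher and 2.01% lower genes in brown fat, 2.86% and 2.27% in liver and 3.14% and 0.97% in muscle. These shares were not tested against each other.

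**Figure D1:**
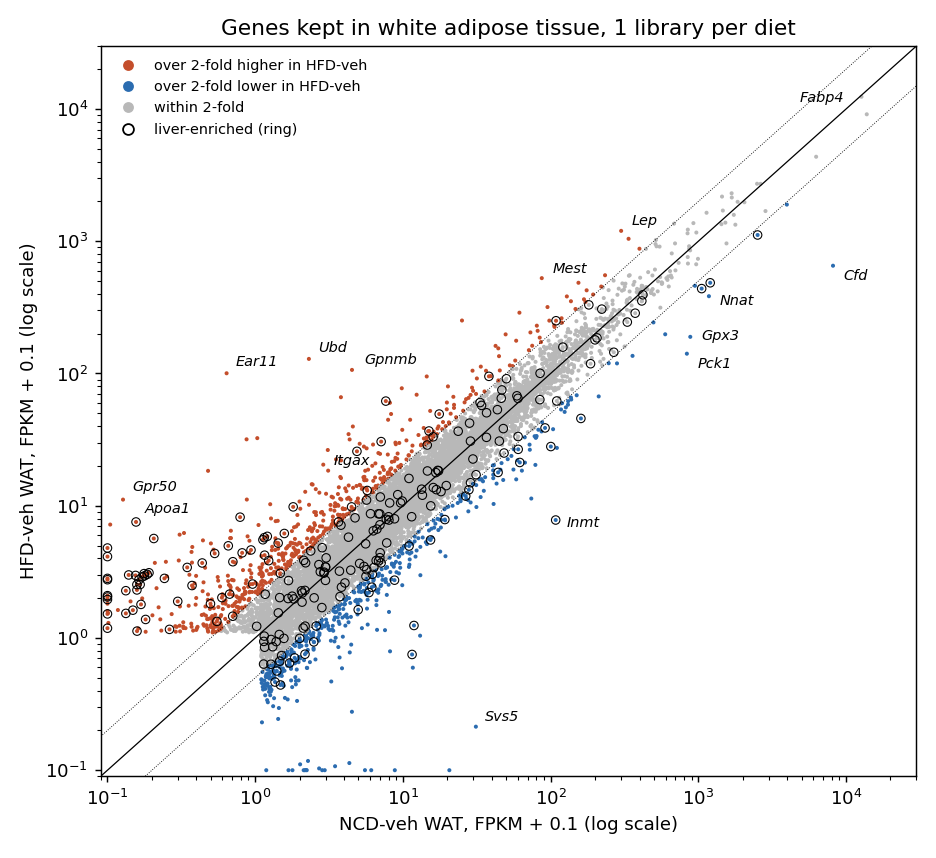
Level of each of the 12208 genes kept in NCD-veh WAT (horizontal) and HFD-veh WAT (vertical), both as FPKM + 0.1 on log axes, with 1 library per diet. Orange points are the 640 genes over 2-fold higher in HFD-veh, blue points the 472 over 2-fold lower, dotted lines mark 2-fold and rings mark liver-enriched genes. Ear11, Ubd and Gpnmb stand far above the diagonal and Cfd, Pck1 and Gpx3 far below it.

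The genes furthest higher in HFD-veh, ranked with 1 added to each FPKM, included several known from leukocytes and macrophages. Ear11 (mm9, chromosome 14, 51874941 to 51875787), a member of the eosinophil-associated ribonuclease family, was at 0.540 FPKM in NCD-veh and 100.3 in HFD-veh (41.4 in HFD-ncls). Its family holds near-identical copies, so its own level is uncertain. Ubd (mm9, chromosome 17, 37330837 to 37333040), which encodes the cytokine-inducible ubiquitin-like protein FAT10, was at 2.21 FPKM in NCD-veh and 129 in HFD-veh (97.7 in HFD-ncls), a log2 ratio of 5.80. Gpnmb (mm9, chromosome 6, 48986517 to 49020928), a transmembrane glycoprotein of lysosome-rich macrophages, was at 4.42 FPKM in NCD-veh and 106 in HFD-veh (153 in HFD-ncls), a log2 ratio of 4.56. Atp6v0d2 (mm9, chromosome 4, 19803988 to 19849752), a subunit of the proton pump that acidifies lysosomes, was at 0.933 FPKM in NCD-veh and 32.3 in HFD-veh (37.8 in HFD-ncls), a log2 ratio of 4.97. Mmp12 (mm9, chromosome 9, 7344381 to 7369499), the elastase of macrophages, was at 3.71 FPKM in NCD-veh and 66.1 in HFD-veh (95.7 in HFD-ncls), a log2 ratio of 4.12. These 5 genes are annotated as protein-coding, and all 5 were likewise far above NCD-veh in the HFD-ncls library.

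The others of these 15 genes are of mixed function. Slc5a7, the choline transporter of cholinergic neurons, was at 0.774 FPKM in NCD-veh and 31.7 in HFD-veh (26.2 in HFD-ncls). Tph2, the neuronal enzyme that starts serotonin synthesis, was at 0.380 FPKM in NCD-veh and 18.3 in HFD-veh (19.2 in HFD-ncls). Gpr50, an orphan receptor related to the melatonin receptors, was at 0.0274 FPKM in NCD-veh and 11.03 in HFD-veh (12.7 in HFD-ncls), and its NCD-veh level rested on about 1.72 fragments against about 674 in HFD-veh. All 3 are genes best known from neurons or brain, and all 3 were also high in HFD-ncls. Mrc2, an endocytic receptor for collagen fragments, was at 4.48 FPKM in NCD-veh and 39.6 in HFD-veh (36.7 in HFD-ncls), a log2 ratio of 3.12. Cdkn1a, which encodes the cell cycle inhibitor p21, was at 9.73 FPKM in NCD-veh and 77.2 in HFD-veh (67.4 in HFD-ncls), a log2 ratio of 2.98. The leukocyte genes S100a8, Adam8 and Rgs1 had log2 ratios of 3.02, 3.09 and 3.67. The remaining members were 1700047G03Rik, at 25.02 FPKM in NCD-veh and 251 in HFD-veh (180.2 in HFD-ncls), and Beta-s, a haemoglobin gene that shares sequence with other copies and was at 7.11 FPKM in HFD-veh and below 0.01 in both other WAT libraries.

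**Figure D2:**
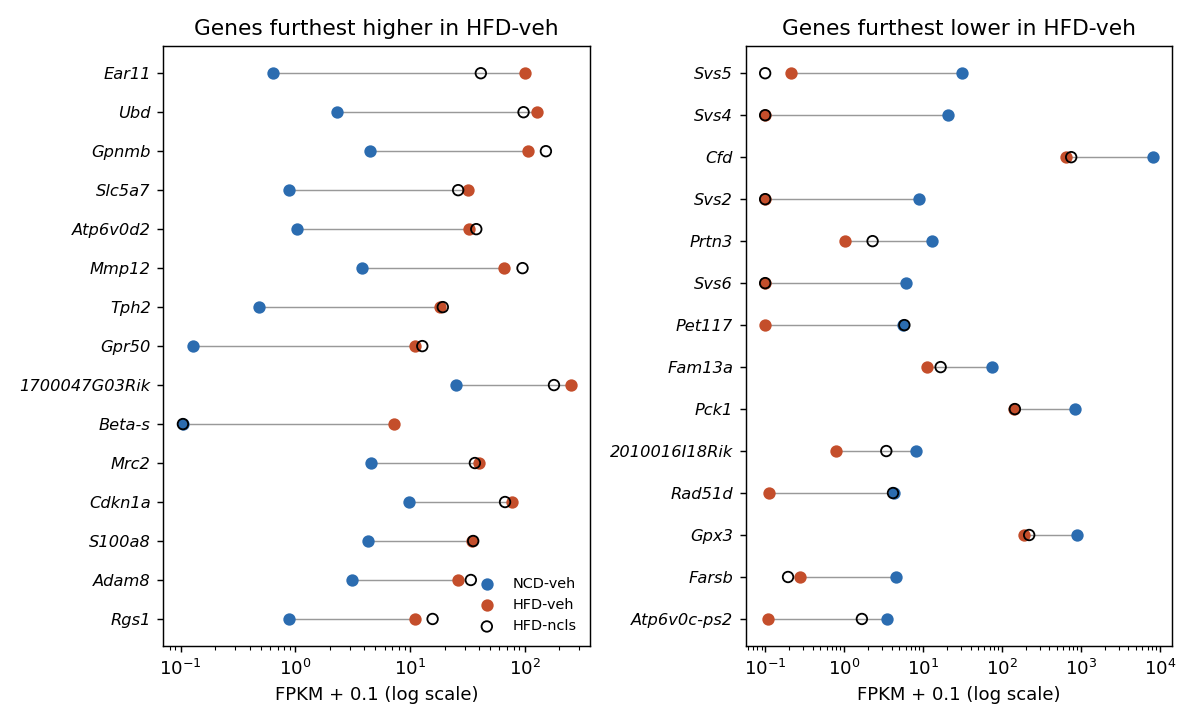
FPKM + 0.1 on a log axis in the 3 WAT libraries for the 15 genes furthest higher (left) and 14 of the 15 furthest lower (right) in HFD-veh, liver-enriched and muscle-enriched genes left out. Blue points are NCD-veh, orange points HFD-veh and open circles HFD-ncls, 1 library each. Open circles lie near orange points for most genes, and apart from them for Beta-s, Pet117, Rad51d, Atp6v0c-ps2 and 2010016I18Rik.

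The genes furthest lower in HFD-veh included secreted and metabolic genes of adipocytes. Cfd (mm9, chromosome 10, 79353598 to 79355401), which encodes adipsin (complement factor D), was at 8163 FPKM in NCD-veh and 653 in HFD-veh (753 in HFD-ncls), a log2 ratio of -3.64. It was among the highest genes of NCD-veh WAT, where the 10 highest genes together held 16.4% of the summed FPKM, against 11.9% in HFD-veh. Pck1 (mm9, chromosome 2, 172978549 to 172984774), the cytosolic carboxykinase that makes glycerol 3-phosphate for fat storage, was at 836 FPKM in NCD-veh and 141 in HFD-veh (146 in HFD-ncls), a log2 ratio of -2.57. Gpx3 (mm9, chromosome 11, 54715955 to 54723879), the secreted glutathione peroxidase, was at 882 FPKM in NCD-veh and 189 in HFD-veh (221 in HFD-ncls), a log2 ratio of -2.22. Fam13a was at 73.9 FPKM in NCD-veh and 11.2 in HFD-veh (16.6 in HFD-ncls), a log2 ratio of -2.71. Prtn3, a protease of neutrophil granules, was at 13.0 FPKM in NCD-veh and 0.941 in HFD-veh (2.20 in HFD-ncls). All of these stayed below NCD-veh in the HFD-ncls library as well. Others in the group were 2010016I18Rik, Farsb (a subunit of phenylalanyl-tRNA synthetase), genes listed near 0 in HFD-veh and genes of the seminal vesicle, both taken up below.

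Genes that adipocytes secrete were mixed in direction. Of 34 adipokines and other secreted fat factors, 29 were kept. Of these, 8 were over 2-fold higher and 1 lower, where 5.24% and 3.87% of all genes kept were, and the median log2 ratio was 0.20. Gdf15, 1 of the 8, reached 1 FPKM in HFD-veh alone and so had to be higher. Lep (mm9, chromosome 6, 29010220 to 29023877), which encodes leptin, was at 300.2 FPKM in NCD-veh and 1199 in HFD-veh (1062 in HFD-ncls), a ratio of 3.99-fold. Adipoq was lower within 2-fold, with a log2 ratio of -0.75, and so was Retn, which encodes resistin, at 1551 FPKM in NCD-veh and 963 in HFD-veh (967 in HFD-ncls). Sfrp5, a secreted Wnt inhibitor of adipocytes, was at 80.6 FPKM in NCD-veh and 229.8 in HFD-veh (208 in HFD-ncls). Angptl4, an inhibitor of lipoprotein lipase, was at 194 FPKM in NCD-veh and 395 in HFD-veh (261 in HFD-ncls). Saa3, the serum amyloid of inflamed fat, was at 7.56 FPKM in NCD-veh and 61.8 in HFD-veh (132 in HFD-ncls). Lep and Sfrp5 thus stood on the opposite side from Adipoq, Retn and Cfd in the same pair of libraries.

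Genes known to mark the expansion of fat were kept for 18 of 18. Of these, 5 were over 2-fold higher and 2 lower, where 5.24% and 3.87% of all genes kept were. Gdf3, 1 of the 5, reached 1 FPKM in HFD-veh alone and so had to be higher. Among the 17 at 1 FPKM or more in both libraries, 4 were higher and 2 lower. Mest, an imprinted gene of enlarging adipocytes, was at 87.0 FPKM in NCD-veh and 526 in HFD-veh (453 in HFD-ncls), a log2 ratio of 2.59. Trp53inp2 was at 154 FPKM in NCD-veh and 485 in HFD-veh (428 in HFD-ncls), a log2 ratio of 1.65. Fgf13, an intracellular member of the fibroblast growth factor family, was at 8.07 FPKM in NCD-veh and 60.0 in HFD-veh (48.9 in HFD-ncls). Caveolin genes, whose protein coats the adipocyte membrane, differed little: Cav1 was at 1434 FPKM in NCD-veh and 1346 in HFD-veh (1187 in HFD-ncls). Nnat, the imprinted neuronatin gene, was on the lower side, at 1179.6 FPKM in NCD-veh and 384 in HFD-veh (445 in HFD-ncls), as was the ferritin receptor gene Scara5, at 41.0 FPKM in NCD-veh and 10.2 in HFD-veh (17.4 in HFD-ncls). Of 19 genes of adipocyte identity, 17 were within 2-fold, and the other 2, both lower, were Cfd and Adrb3. Pparg, the master regulator of fat cells, was at 129 FPKM in NCD-veh and 109 in HFD-veh (125 in HFD-ncls).

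Most genes of fat synthesis and storage stayed within 2-fold. Of 30 kept genes of fatty acid synthesis, 2 were higher and 1 lower, with a median log2 ratio of 0.12. Fasn, the fatty acid synthase, was at 453 FPKM in NCD-veh and 432 in HFD-veh (412 in HFD-ncls). Acaca, the carboxylase that makes its substrate malonyl-CoA, was at 77.8 FPKM in NCD-veh and 33.5 in HFD-veh (31.0 in HFD-ncls), a log2 ratio of -1.22. Insig1, a sterol-responsive brake on lipid synthesis, was at 29.5 FPKM in NCD-veh and 105 in HFD-veh (152 in HFD-ncls), and the desaturase gene Scd2 at 106 FPKM in NCD-veh and 231 in HFD-veh (197 in HFD-ncls). In triglyceride assembly, 3 of 23 kept genes were higher and 2 lower, with a median of 0.20. Gpd1, which makes glycerol 3-phosphate from glycolysis, was at 234 FPKM in NCD-veh and 553 in HFD-veh (519 in HFD-ncls), a log2 ratio of 1.24. Pck1, the other source of that precursor, differed in the opposite direction. Dgat2, which adds the last fatty acid, was at 685 FPKM in NCD-veh and 1359 in HFD-veh (1179 in HFD-ncls), just within 2-fold. The monoacylglycerol acyltransferase genes lay on opposite sides, with Mogat2 at 3.71 FPKM in NCD-veh and 21.9 in HFD-veh (16.6 in HFD-ncls) and Mogat1 at 22.8 FPKM in NCD-veh and 8.05 in HFD-veh (6.77 in HFD-ncls).

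Genes of lipolysis, the droplet coat and fatty acid uptake also divided. Of 21 kept genes of lipolysis and the droplet, 2 were higher and 3 lower. Pnpla2, the lipase that opens triglyceride breakdown, was at 851 FPKM in NCD-veh and 678 in HFD-veh (599 in HFD-ncls), and Lipe, which acts next, at 652 FPKM in NCD-veh and 551 in HFD-veh (519 in HFD-ncls), both within 2-fold. Plin1, the main coat protein of the adipocyte droplet, was at 660.3 FPKM in NCD-veh and 532 in HFD-veh (493 in HFD-ncls). Plin2, the coat protein of small droplets in many cell types, was at 95.2 FPKM in NCD-veh and 318 in HFD-veh (299 in HFD-ncls), a log2 ratio of 1.74. Ces1d, a triglyceride hydrolase, was at 597 FPKM in NCD-veh and 198 in HFD-veh (189.5 in HFD-ncls). In fatty acid uptake, 3 of 17 kept genes were higher and 1 lower. Lpl, lipoprotein lipase, was at 2499 FPKM in NCD-veh and 2722 in HFD-veh (2701 in HFD-ncls), and Fabp5, a fatty acid carrier shared by adipocytes and macrophages, was at 44.7 FPKM in NCD-veh and 135 in HFD-veh (143 in HFD-ncls), a log2 ratio of 1.60. Apoe, an apolipoprotein made by adipocytes, macrophages and liver, was the lower gene, at 2520.1 FPKM in NCD-veh and 1115 in HFD-veh (1265 in HFD-ncls).

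Genes of cholesterol synthesis and uptake were higher on the whole. Of 24 listed, 22 were kept, 7 of them over 2-fold higher and none lower, where 5.24% and 3.87% of all genes kept were. The list had a median log2 ratio of 0.69, and 21 of 22 ratios were above 0. Mvd, an enzyme of the mevalonate pathway, was at 2.64 FPKM in NCD-veh and 6.88 in HFD-veh (7.91 in HFD-ncls). Lss, which closes the sterol ring, was at 5.39 FPKM in NCD-veh and 15.5 in HFD-veh (12.7 in HFD-ncls), a log2 ratio of 1.51. Dhcr7, which acts at the last step, was at 4.995 FPKM in NCD-veh and 14.3 in HFD-veh (13.9 in HFD-ncls), a log2 ratio of 1.497. The exception below 0 was Fdft1, at 12.8 FPKM in NCD-veh and 9.23 in HFD-veh (9.26 in HFD-ncls). Of the 22 genes, 6 are liver-enriched, and without them 6 were higher with a median of 0.81.

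Most genes of mitochondrial metabolism were within 2-fold. Of 81 nuclear genes of the respiratory chain and ATP synthase, 78 were within 2-fold and the median log2 ratio was -0.09. The 3 higher genes were Cox8b, Cox4i2 and Cox6a2, isoforms of cytochrome oxidase subunits with tissue-restricted expression. Cox8b and Cox6a2 are muscle-enriched, as is Cpt1b below, and Cox6a2 and Cpt1b reached 1 FPKM in HFD-veh alone. Of 108 muscle-enriched genes kept in WAT, 16 were over 2-fold higher and 9 lower, where 5.24% and 3.87% of all genes kept were. Cox8b, a subunit of brown fat and muscle, was at 26.1 FPKM in NCD-veh and 60.4 in HFD-veh (43.4 in HFD-ncls). All 25 genes of the tricarboxylic acid cycle were within 2-fold, with a median of -0.08. Of 30 genes of beta oxidation, 1 was over 2-fold higher and none lower, with a median of 0.22. The higher gene was Cpt1b, the carnitine palmitoyltransferase of muscle, at 0.501 FPKM in NCD-veh and 2.04 in HFD-veh (2.47 in HFD-ncls).

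Breakdown of branched-chain amino acids leaned lower. Of 25 genes, 22 had a log2 ratio below 0, the median was -0.49, and single differences were mostly within 2-fold. Bcat2, the transaminase of the opening step, was at 73.9 FPKM in NCD-veh and 50.3 in HFD-veh (50.9 in HFD-ncls), and Bckdha, a subunit of the dehydrogenase of the next step, at 76.3 FPKM in NCD-veh and 51.8 in HFD-veh (53.3 in HFD-ncls). Ppm1k, the phosphatase that activates that dehydrogenase, was the 1 gene over 2-fold lower, at 3.60 FPKM in NCD-veh and 1.56 in HFD-veh (1.73 in HFD-ncls). Bcat1, the cytosolic transaminase, was the 1 gene over 2-fold higher, at 0.758 FPKM in NCD-veh and 2.14 in HFD-veh (1.61 in HFD-ncls). It reached 1 FPKM in HFD-veh alone and so had to be higher.

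Of 30 kept genes of insulin signalling and glucose uptake, none was over 2-fold higher and 1 lower, with a median log2 ratio of -0.23. Insr, the insulin receptor, was at 18.5 FPKM in NCD-veh and 13.0 in HFD-veh (12.8 in HFD-ncls), and Irs1, its first substrate, at 7.34 FPKM in NCD-veh and 3.70 in HFD-veh (3.82 in HFD-ncls), a log2 ratio of -0.97. After scaling each library by its median ratio to the geometric mean of the 3 WAT libraries, the Irs1 ratio passed 2-fold. Slc2a4, the insulin-responsive glucose transporter, was at 60.5 FPKM in NCD-veh and 48.6 in HFD-veh (46.7 in HFD-ncls). The gene over 2-fold lower was Slc2a3, a glucose transporter of neurons and leukocytes, at 3.95 FPKM in NCD-veh and 1.37 in HFD-veh (1.99 in HFD-ncls). Among receptors that drive lipolysis, Adrb3, the beta-3 adrenergic receptor of adipocytes, was at 212 FPKM in NCD-veh and 67.0 in HFD-veh (70.4 in HFD-ncls), a log2 ratio of -1.66. The lactate receptor gene Gpr81, which restrains lipolysis, was at 33.9 FPKM in NCD-veh and 15.7 in HFD-veh (15.7 in HFD-ncls), a log2 ratio of -1.11. Of 23 kept adrenergic and cAMP genes, 1 was higher and 3 lower. Adra1b, 1 of the 3, is liver-enriched and reached 1 FPKM in NCD-veh alone, so it had to be lower. Among the 22 at 1 FPKM or more in both libraries, 1 was higher and 2 lower, with a median of 0.055.

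Macrophage genes were higher in HFD-veh, and unevenly so. Of 48 genes of the macrophage core list, 46 were kept, 14 over 2-fold higher and 1 lower, with a median log2 ratio of 0.74. Among the 42 members at 1 FPKM or more in both libraries, 11 were higher and 1 lower, with a median of 0.65. Over all 11405 genes at 1 FPKM or more in both libraries, 394 were higher and 279 lower. Itgax, which encodes the integrin CD11c of dendritic cells and of macrophages in obese fat, was at 2.79 FPKM in NCD-veh and 20.4 in HFD-veh (22.7 in HFD-ncls), a log2 ratio of 2.82. Cd68, a lysosomal glycoprotein of macrophages, was at 49.5 FPKM in NCD-veh and 198 in HFD-veh (222 in HFD-ncls), a log2 ratio of 1.99. Emr1, which encodes F4/80, was at 14.0 FPKM in NCD-veh and 29.7 in HFD-veh (30.9 in HFD-ncls), a log2 ratio of 1.08. Csf1r, the growth factor receptor on which macrophages depend, was at 57.2 FPKM in NCD-veh and 64.8 in HFD-veh (65.2 in HFD-ncls), and Itgam, which encodes CD11b, at 13.8 FPKM in NCD-veh and 21.4 in HFD-veh (23.7 in HFD-ncls), both within 2-fold. Some members are known from resident fat macrophages. Timd4, a receptor for dying cells, was at 4.11 FPKM in NCD-veh and 1.33 in HFD-veh (0.879 in HFD-ncls), a log2 ratio of -1.56. Cd163, a scavenger receptor for haemoglobin, was at 24.1 FPKM in NCD-veh and 15.3 in HFD-veh (14.0 in HFD-ncls), Lyve1 was at 32.0 FPKM in NCD-veh and 23.9 in HFD-veh (22.9 in HFD-ncls) and Mrc1, the mannose receptor CD206, at 37.2 FPKM in NCD-veh and 39.8 in HFD-veh (36.2 in HFD-ncls). None of the 46 genes is liver-enriched.

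The list of lipid-associated macrophages and their lysosomes was also mostly on the higher side. Of 32 genes, all kept, 15 were over 2-fold higher and 1 lower, where 5.24% and 3.87% of all genes kept were. The list had a median log2 ratio of 0.89. Among the 28 at 1 FPKM or more in both libraries, 11 were higher and 1 lower, with a median of 0.77. Trem2, the lipid-sensing receptor of these cells, was at 4.26 FPKM in NCD-veh and 31.6 in HFD-veh (46.2 in HFD-ncls), a log2 ratio of 2.86. Lgals3, which encodes galectin-3, was at 61.4 FPKM in NCD-veh and 288 in HFD-veh (338 in HFD-ncls), a log2 ratio of 2.23. Ctss, the cathepsin of antigen-presenting cells, was at 58.4 FPKM in NCD-veh and 177 in HFD-veh (224 in HFD-ncls), and Ctsk, the cathepsin of osteoclasts, at 9.35 FPKM in NCD-veh and 29.7 in HFD-veh (36.8 in HFD-ncls). Lipa, the acid lipase that frees cholesterol and fatty acids in lysosomes, was at 29.3 FPKM in NCD-veh and 78.1 in HFD-veh (93.6 in HFD-ncls), a log2 ratio of 1.41. Spp1, which encodes osteopontin, was at 0.432 FPKM in NCD-veh and 4.26 in HFD-veh (12.5 in HFD-ncls). Cd9, a surface protein that many other cells also carry, was at 26.5 FPKM in NCD-veh and 35.6 in HFD-veh (45.7 in HFD-ncls), within 2-fold. The lysosomal membrane genes Lamp1, at 263 FPKM in NCD-veh and 335 in HFD-veh (329 in HFD-ncls), and Lamp2, at 121 FPKM in NCD-veh and 112 in HFD-veh (109.8 in HFD-ncls), were within 2-fold. The liver-enriched members Spp1, Anpep and Apoe left out, 13 were higher, none lower and the median was 0.82.

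**Figure D3:**
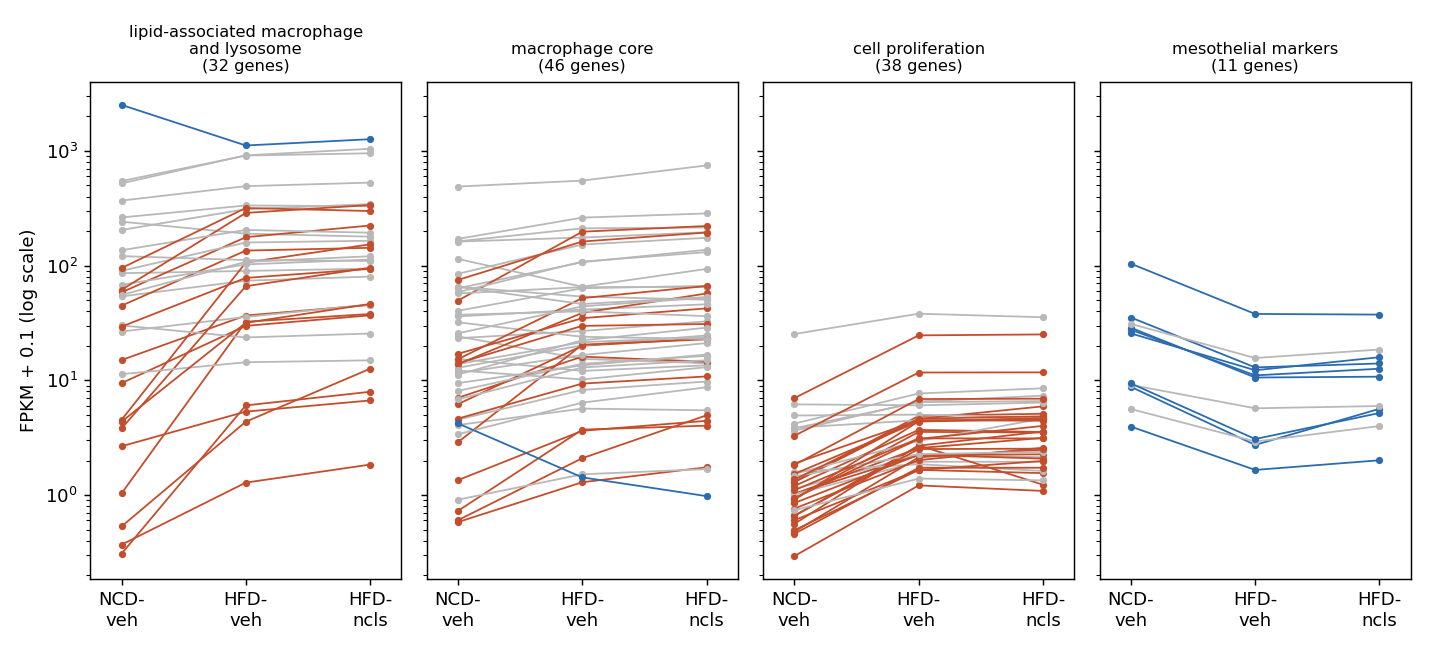
FPKM + 0.1 on a log axis in the 3 WAT libraries for the kept members of 4 lists, 1 library per group and 1 line per gene. Orange lines are over 2-fold higher and blue lines over 2-fold lower in HFD-veh than in NCD-veh, and grey lines within 2-fold. Lines climb for most lipid-associated macrophage and proliferation genes, are mixed for core macrophage genes and descend from NCD-veh to HFD-veh for every mesothelial gene.

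Chemokine genes differed in both directions. Of 29 kept chemokines and receptors, 5 were higher and 5 lower, with a median of 0.35. Of the 24 at 1 FPKM or more in both libraries, 4 were higher and 2 lower. Ccl2, the main attractant of monocytes, was at 8.22 FPKM in NCD-veh and 49.3 in HFD-veh (22.8 in HFD-ncls), a log2 ratio of 2.57, with the HFD-ncls level between the others. Ccl7 was at 6.18 FPKM in NCD-veh and 28.9 in HFD-veh (15.9 in HFD-ncls). Ccl8, of the same family, was at 7.84 FPKM in NCD-veh and 44.6 in HFD-veh (46.1 in HFD-ncls). Ccr2, the receptor gene for Ccl2 and Ccl7, was at 20.8 FPKM in NCD-veh and 21.1 in HFD-veh (24.4 in HFD-ncls). Ccl24, which attracts eosinophils, was at 17.8 FPKM in NCD-veh and 4.40 in HFD-veh (4.83 in HFD-ncls), and its receptor gene Ccr3 at 1.11 FPKM in NCD-veh and 0.352 in HFD-veh (0.145 in HFD-ncls). Cytokine genes were mostly low or close together. Of 37 listed, 24 were kept, with 3 higher and none lower. Il1rn, the antagonist of the interleukin-1 receptor, was at 1.83 FPKM in NCD-veh and 8.41 in HFD-veh (11.4 in HFD-ncls), a log2 ratio of 2.14. The other 2, Saa3 and Saa1, are liver-enriched, and Saa1 reached 1 FPKM in HFD-veh alone and so had to be higher. The genes of tumour necrosis factor, interleukin-1 beta and interleukin-6 did not reach 1 FPKM in either library.

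Lymphocyte, granulocyte and mast cell genes were mostly low in both libraries. Of 36 T cell and natural killer genes, 14 were kept, with 1 higher, 5 lower and a median log2 ratio of -0.60. Of the 14, 5 reached 1 FPKM in NCD-veh alone and so had to be lower. Among the 8 at 1 FPKM or more in both libraries, 1 was higher, 1 lower and the median was -0.25, and with an FPKM of at least 5 in either library the median was 0.056. Cd3g, a chain of the T cell receptor complex, was at 2.14 FPKM in NCD-veh and 0.495 in HFD-veh (1.45 in HFD-ncls). Il7r, the receptor for interleukin-7, was the higher gene, at 1.18 FPKM in NCD-veh and 7.91 in HFD-veh (9.52 in HFD-ncls), a log2 ratio of 2.65. Of 10 kept granulocyte and mast cell genes, 6 were lower, 1 higher and the median was -1.18, and of the 7 at 1 FPKM or more in both libraries 4 were lower and 1 higher. Mast cell protease genes were lower together, with Mcpt4 at 13.0 FPKM in NCD-veh and 4.78 in HFD-veh (7.68 in HFD-ncls), Tpsb2 at 13.5 FPKM in NCD-veh and 5.66 in HFD-veh (7.05 in HFD-ncls) and Cma1 at 10.6 FPKM in NCD-veh and 4.34 in HFD-veh (5.96 in HFD-ncls). S100a8, the calprotectin subunit of neutrophils and monocytes, was the higher gene, at 4.19 FPKM in NCD-veh and 34.7 in HFD-veh (35.5 in HFD-ncls), while its partner S100a9 was at 2.62 FPKM in NCD-veh and 5.07 in HFD-veh (0.523 in HFD-ncls). Cd79a, a chain of the B cell receptor, was at 3.82 FPKM in NCD-veh and 0.922 in HFD-veh (2.91 in HFD-ncls). Antigen-presenting genes were slightly higher. Of 9 kept MHC class II genes, 8 had a ratio above 0 and the median was 0.47, and the invariant chain gene Cd74 was at 696 FPKM in NCD-veh and 963 in HFD-veh (1075 in HFD-ncls).

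Collagen genes leaned higher, and other matrix genes differed in both directions. Of 29 collagen genes, 23 were kept, 5 over 2-fold higher and 1 lower, with a median log2 ratio of 0.73. Of the 23, 2 reached 1 FPKM in HFD-veh alone and had to be higher, and 2 in NCD-veh alone and had to be lower. Among the 19 at 1 FPKM or more in both libraries, 4 were higher and none lower, with a median of 0.73. Chains of collagen VI, which surrounds adipocytes, were the most abundant of the 5 higher genes. Col6a1 was at 137 FPKM in NCD-veh and 352 in HFD-veh (357 in HFD-ncls), Col6a2 at 129 FPKM in NCD-veh and 383 in HFD-veh (395 in HFD-ncls) and Col6a3 at 21.9 FPKM in NCD-veh and 66.5 in HFD-veh (59.0 in HFD-ncls), with log2 ratios of 1.36, 1.57 and 1.60. Fibrillar collagen genes were within 2-fold, with Col1a1 at 92.1 FPKM in NCD-veh and 152 in HFD-veh (177 in HFD-ncls) and Col3a1 at 262 FPKM in NCD-veh and 356 in HFD-veh (387 in HFD-ncls). Other matrix proteins and remodelling enzymes gave 9 higher and 3 lower of 48 kept, with a median of 0.06. Of the 48, 3 reached 1 FPKM in HFD-veh alone and so had to be higher. Among the 45 at 1 FPKM or more in both libraries, 6 were higher and 3 lower. Postn, which encodes periostin, was at 42.3 FPKM in NCD-veh and 162 in HFD-veh (131 in HFD-ncls), a log2 ratio of 1.93. Timp1, an inhibitor of matrix proteases, was at 3.97 FPKM in NCD-veh and 13.4 in HFD-veh (19.6 in HFD-ncls), and Serpinh1, the chaperone of collagen folding, at 220.1 FPKM in NCD-veh and 454 in HFD-veh (393 in HFD-ncls). Dcn, which encodes the small proteoglycan decorin, was on the lower side, at 949 FPKM in NCD-veh and 461 in HFD-veh (529 in HFD-ncls), as was the gelatinase gene Mmp9, at 7.95 FPKM in NCD-veh and 1.47 in HFD-veh (0.759 in HFD-ncls).

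**Figure D4:**
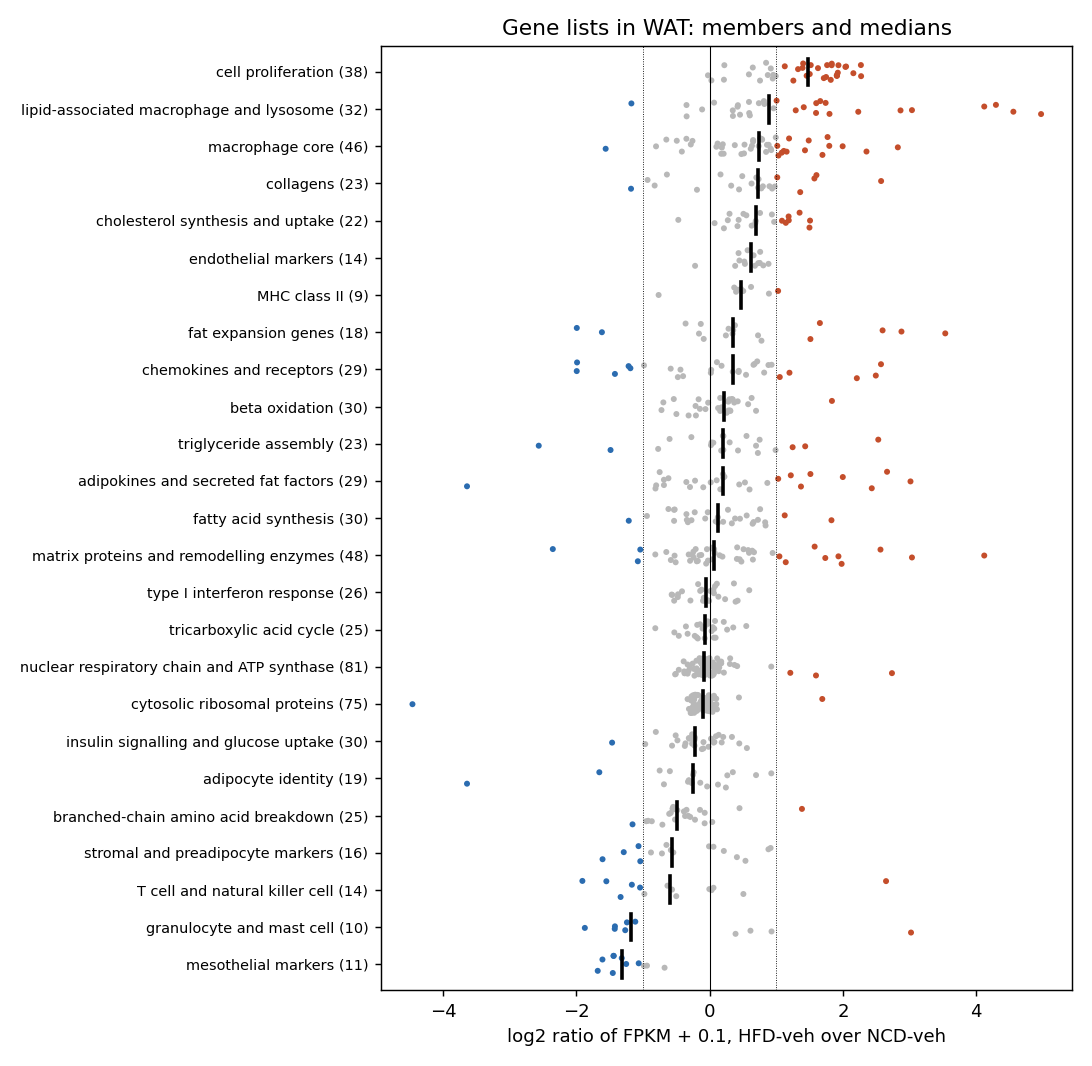
Log2 ratio of HFD-veh over NCD-veh WAT (FPKM + 0.1) for the kept members of 25 gene lists, with the number of members beside each name. Each point is 1 gene, orange over 2-fold higher and blue over 2-fold lower, black bars are list medians and dotted lines mark 2-fold. Medians run from -1.32 for mesothelial markers to 1.48 for cell proliferation, beside 0.028 for all genes kept.

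Cell proliferation genes had the highest median of the 25 lists plotted. Of 40 listed, 38 were kept, 25 of them over 2-fold higher and none lower, where 5.24% and 3.87% of all genes kept were. The list had a median log2 ratio of 1.48. Levels in NCD-veh ran from 0.194 FPKM for Melk to 25.2 for Pcna, and 17 of the 38 passed the filter through HFD-veh alone, so those had to be higher. Among the 21 at 1 FPKM or more in both libraries, 10 were higher and the median was 0.99. Mki67, the classical marker of dividing cells, was at 1.73 FPKM in NCD-veh and 6.77 in HFD-veh (6.82 in HFD-ncls), a log2 ratio of 1.91. Top2a, which untangles chromosomes, was at 1.27 FPKM in NCD-veh and 4.53 in HFD-veh (4.76 in HFD-ncls), a log2 ratio of 1.76. Ube2c, which targets mitotic cyclins for destruction, was at 3.19 FPKM in NCD-veh and 11.6 in HFD-veh (11.6 in HFD-ncls), a log2 ratio of 1.83. Stmn1, a regulator of microtubules, was at 6.90 FPKM in NCD-veh and 24.6 in HFD-veh (25.03 in HFD-ncls), a log2 ratio of 1.82. Cdk1, the kinase that starts mitosis, was at 0.379 FPKM in NCD-veh and 2.04 in HFD-veh (2.38 in HFD-ncls), and its partner Ccnb2 at 0.557 FPKM in NCD-veh and 2.59 in HFD-veh (3.48 in HFD-ncls). Genes of DNA replication were divided. Pcna, the sliding clamp, was at 25.2 FPKM in NCD-veh and 38.0 in HFD-veh (35.4 in HFD-ncls) and Mcm7, a helicase subunit, at 6.07 FPKM in NCD-veh and 5.96 in HFD-veh (6.30 in HFD-ncls), both within 2-fold. Mcm5, another subunit of that helicase, was at 1.43 FPKM in NCD-veh and 4.27 in HFD-veh (4.51 in HFD-ncls), and Tk1, a thymidine kinase, at 0.811 FPKM in NCD-veh and 4.29 in HFD-veh (4.59 in HFD-ncls), both over 2-fold higher. The inhibitor gene Cdkn1a, described above, was also higher. Which cells carried these transcripts cannot be told from bulk tissue.

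Promoters of mitotic genes commonly carry CCAAT boxes, bound by the factor NF-Y, and a cell cycle homology region, and the sterol genes carry CCAAT boxes too. The 250 bases before the start of each gene (RefSeq, GRCm38.p6) were searched on both strands for CCAAT and for the cell cycle letters TTTGAA or TTCGAA. Boxes of CCAAT were found for 23 of 30 proliferation genes with a promoter in the table (76.7%), 13 of 14 cholesterol genes (92.9%) and 12 of 26 genes of lipid-associated macrophages (46.2%), beside 40.3% of the 9030 genes kept that have one. The cell cycle letters were found for 13 of 30 proliferation genes (43.3%), beside 14.5% of all, 19.2% of the macrophage list and 14.3% of the cholesterol list. The E-box CACGTG was found for 23.1% of the macrophage list, 21.4% of the cholesterol list and 3.33% of the proliferation list, beside 10.0% of all. The letters TCACNCCAC of the sterol element gave 0 of 14 cholesterol genes and 1.25% of all, and the AP-1 letters TGANTCA gave 11.5% of the macrophage list and 5.84% of all. Overlapping matches were counted, and a match is a description of the sequence and not a bound site. The upstream sequences of 3 mitotic genes and of Lss show the arrangement, with CCAAT boxes (CCAAT, or ATTGG on the other strand) and, in the mitotic genes, the cell cycle letters on either strand in capitals.
Cdk1 (chr10:69352913-69353162, minus strand): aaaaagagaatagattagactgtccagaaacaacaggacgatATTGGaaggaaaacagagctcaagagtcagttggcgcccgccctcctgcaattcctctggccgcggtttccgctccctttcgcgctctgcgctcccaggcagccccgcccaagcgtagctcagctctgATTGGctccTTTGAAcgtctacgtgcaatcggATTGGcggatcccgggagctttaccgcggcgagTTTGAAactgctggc
Ccnb2 (chr9:70421555-70421804, minus strand): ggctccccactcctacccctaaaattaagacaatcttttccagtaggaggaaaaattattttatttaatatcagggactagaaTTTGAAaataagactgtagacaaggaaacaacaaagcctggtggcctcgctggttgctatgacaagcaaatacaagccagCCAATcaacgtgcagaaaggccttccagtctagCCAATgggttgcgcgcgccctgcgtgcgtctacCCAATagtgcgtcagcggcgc
Ube2c (chr2:164769679-164769928, plus strand): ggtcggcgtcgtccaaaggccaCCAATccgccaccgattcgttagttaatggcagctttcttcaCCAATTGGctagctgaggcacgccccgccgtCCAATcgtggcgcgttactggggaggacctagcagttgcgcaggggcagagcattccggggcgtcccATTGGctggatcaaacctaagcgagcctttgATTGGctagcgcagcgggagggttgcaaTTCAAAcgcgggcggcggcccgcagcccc
Lss (chr10:76531355-76531604, plus strand): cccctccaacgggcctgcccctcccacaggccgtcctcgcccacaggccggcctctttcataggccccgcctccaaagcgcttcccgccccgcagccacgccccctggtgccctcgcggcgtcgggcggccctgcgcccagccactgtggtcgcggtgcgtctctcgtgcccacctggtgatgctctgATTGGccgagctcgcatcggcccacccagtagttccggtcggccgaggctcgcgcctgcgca
Cdk1 holds 3 CCAAT boxes that begin 208, 80 and 48 bases before the start, and cell cycle letters at 71 and 15. In Ccnb2 the 3 boxes begin at 87, 54 and 21, and the cell cycle letters at 167, further from the start than the boxes. In Ube2c there are 6 boxes, of which a pair overlap, and cell cycle letters at 29. Lss holds 1 box, which begins 62 bases before the start.

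Genes of the other cells of the tissue differed in both directions. All 14 endothelial genes were within 2-fold, 13 of them above 0, with a median log2 ratio of 0.61. Pecam1, the adhesion molecule CD31 of vessel lining, was at 40.6 FPKM in NCD-veh and 67.3 in HFD-veh (69.8 in HFD-ncls), and Cdh5, its cadherin, at 54.8 FPKM in NCD-veh and 92.3 in HFD-veh (89.4 in HFD-ncls). Of 16 kept stromal and preadipocyte genes, 4 were over 2-fold lower and none higher, where 3.87% and 5.24% of all genes kept were. The stromal median was -0.57. Pi16 and Dpp4 mark early stromal precursors. Pi16 was at 47.7 FPKM in NCD-veh and 15.6 in HFD-veh (21.9 in HFD-ncls), a log2 ratio of -1.61, and Dpp4 was at 19.1 FPKM in NCD-veh and 7.76 in HFD-veh (8.88 in HFD-ncls), a log2 ratio of -1.29. Pdgfra, the receptor of fibroblasts and precursors, was at 19.1 FPKM in NCD-veh and 10.3 in HFD-veh (9.34 in HFD-ncls), while Pdgfrb, the receptor of vessel-wall cells, was at 11.5 FPKM in NCD-veh and 21.8 in HFD-veh (21.8 in HFD-ncls), both within 2-fold.

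Mesothelium is the cell layer that covers fat inside the abdomen. All 11 mesothelial genes with values were lower in HFD-veh, with a median log2 ratio of -1.32. Of the 11, 8 were over 2-fold lower, where 3.87% of all genes kept were. The summed level of the 11 was 288 FPKM in NCD-veh and 115 in HFD-veh (131 in HFD-ncls). Upk3b was at 104 FPKM in NCD-veh and 37.8 in HFD-veh (37.3 in HFD-ncls), a log2 ratio of -1.46. Wt1, a transcription factor of mesothelium and visceral fat, was at 9.30 FPKM in NCD-veh and 2.98 in HFD-veh (5.09 in HFD-ncls), a log2 ratio of -1.61. Msln, which encodes mesothelin, was at 31.0 FPKM in NCD-veh and 15.6 in HFD-veh (18.5 in HFD-ncls), at the edge of 2-fold, which it passed after the same scaling. None of the defining markers was at 0. Krt8 and Krt18, also made by liver epithelium, are liver-enriched, and without them 7 of 9 genes were over 2-fold lower.

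A group of seminal vesicle genes had levels in NCD-veh WAT and were listed at or near 0 in the HFD libraries. These genes were chosen after their values were seen. Svs5 was at 31.1 FPKM in NCD-veh and 0.113 in HFD-veh, and was listed at 0 with ncls. Svs4, at 20.5 FPKM in NCD-veh, Svs2, at 8.72, and Svs6, at 6.00, were listed at 0 in both HFD libraries, as were Sva, Pate4, Svs3b and Spink3. All encode secretory proteins of the male reproductive glands, and their part in other differences, such as that of the mesothelial genes, was not tested. All of these genes were also listed at 0 in brown fat, liver and muscle of NCD-veh and HFD-veh mice. In NCD-veh WAT, Svs5, Svs4 and Svs2 rested on about 399, 307 and 302 fragments. Tgm4, the transglutaminase of prostate, was at 2.87 FPKM in NCD-veh and 3.71 in HFD-veh (3.40 in HFD-ncls). It had values in the other organs too. In NCD-veh and HFD-veh they were 2.63 and 1.99 FPKM in brown fat, 2.77 and 2.72 in muscle and 1.36 and 0.828 in liver.

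Some genes were listed near 0 in 1 library and well above in the other. With limits of 0.01 and 2 FPKM there were 17 such genes, 12 near 0 in HFD-veh and 5 in NCD-veh. Of the 17, 7 are seminal vesicle genes, 4 are liver-enriched and 6 are neither. The 6 include Rpl26, a ribosomal protein gene that every cell uses, at 2.11 FPKM in NCD-veh but below 0.01 in HFD-veh (4.66 in HFD-ncls). Pet117, a mitochondrial assembly factor, was at 5.44 FPKM in NCD-veh but below 0.01 in HFD-veh (5.70 in HFD-ncls). A listed 0 can be a failed estimate of the quantification, and whether it is for the seminal vesicle genes was not tested. The ratios of all 17 genes, which enter the counts given above, are uncertain. Of the 12 near 0 in HFD-veh, 4 were at 1 FPKM or more in HFD-ncls.

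Liver-enriched genes made up 66 of the 640 higher and 34 of the 472 lower genes. Those higher and those lower differed in their level against liver. Of the 60 higher genes with a value in liver, 36 were below 1% of their level in HFD-veh liver, with a median over the 60 of 0.117% in HFD-veh and 0.0231% in NCD-veh. Of the 34 lower genes, 29 were at 1% or more in HFD-veh, with a median of 3.43% in HFD-veh and 13.9% in NCD-veh. Apoa1, the main protein of high-density lipoprotein, was at 0.0561 FPKM in NCD-veh and 7.44 in HFD-veh (23.8 in HFD-ncls), and its NCD-veh level rested on about 1.19 fragments. Alb, which encodes albumin and has no value in the liver libraries, was at 4.79 FPKM in NCD-veh and 25.7 in HFD-veh (94.1 in HFD-ncls). Fabp1, the fatty acid carrier of liver, Mup3, a major urinary protein of a gene family with near-identical copies, and Ttr, which encodes transthyretin, were listed at 0 in NCD-veh. In HFD-veh they were at 4.69, 4.03 and 2.66 FPKM, and in HFD-ncls at 19.9, 12.8 and 10.5.

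Over 261 liver-enriched genes with at least 100 FPKM in liver, the median level in WAT was 0.0227% of that in liver of the same group in NCD-veh and 0.109% in HFD-veh (0.330% in HFD-ncls), and in the same order of libraries 82, 5 and 0 of them were listed at 0. Genes at such small shares of their liver level are marked here as possible carryover of liver RNA, whose part in these ratios was not tested. Other higher genes stood at much larger shares. F7, coagulation factor VII, was at 0.106 FPKM in NCD-veh and 5.55 in HFD-veh (6.61 in HFD-ncls), 18.8% of its HFD-veh liver level. Saa3 stood above liver in HFD-veh, with 61.8 FPKM in WAT and 7.67 in liver, but liver itself had 419 in NCD-veh, where WAT was at 1.80% of it. Against HFD-veh liver, Spp1 stood at 18.9% and Marc1, a mitochondrial reductase, at 21.6%. Among the lower liver-enriched genes, several were abundant in NCD-veh WAT. Inmt, a methyltransferase of indole amines, was at 108 FPKM in NCD-veh and 7.70 in HFD-veh (15.3 in HFD-ncls), a log2 ratio of -3.79. Cyp2e1, an ethanol-oxidizing cytochrome, was at 1053 FPKM in NCD-veh and 438 in HFD-veh (409 in HFD-ncls), Agt, which encodes angiotensinogen, at 160.2 FPKM in NCD-veh and 45.6 in HFD-veh (54.2 in HFD-ncls), and C2, a complement component, at 100.2 FPKM in NCD-veh and 27.9 in HFD-veh (27.9 in HFD-ncls).

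**Figure D5:**
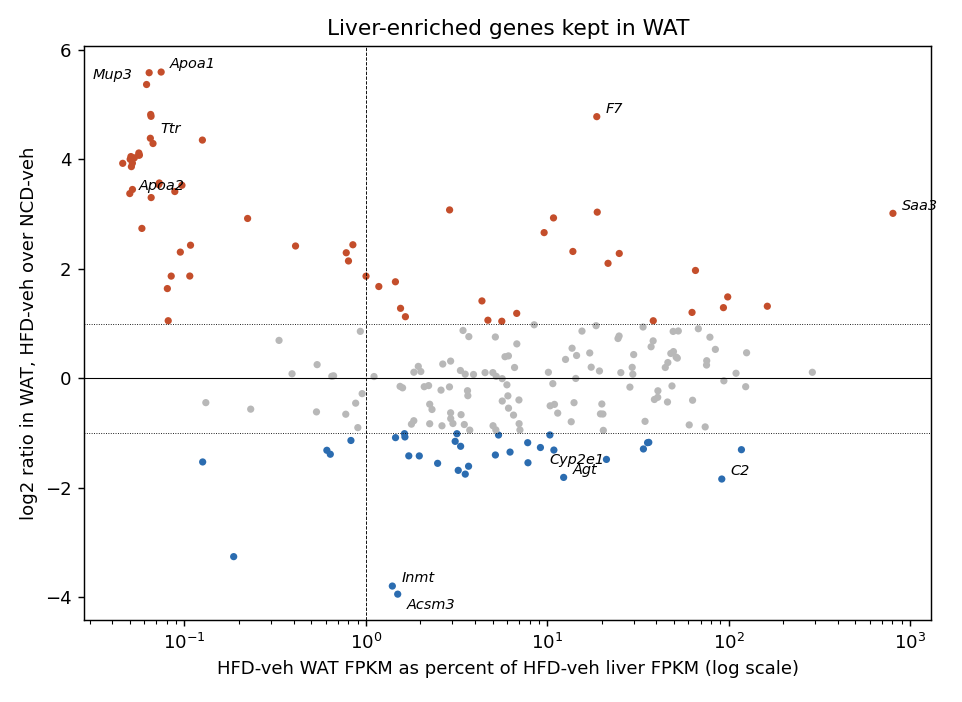
Log2 ratio of HFD-veh over NCD-veh WAT against the HFD-veh WAT level as percent of HFD-veh liver (log axis) for the 215 liver-enriched genes kept that have a liver value, 1 point per gene. Orange points are over 2-fold higher, blue points over 2-fold lower, dotted lines mark 2-fold and the dashed line marks 1%. Most orange points, such as Apoa1 and Mup3, lie left of 1%, and most blue points, such as Agt and C2, lie right of it.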

How the data were processed

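The 2 vehicle libraries of white adipose tissue were compared. The deposited values are FPKM per RefSeq gene symbol, which the authors made with Cufflinks from reads aligned to mm9 with TopHat. No scaling between libraries is stated, and no count test was run, because FPKM are not counts. Ratios were computed here as log2((FPKM + 0.1) ratio) with Python 3.11.15, numpy 2.4.6 and pandas 2.3.3, for genes that reached 1 FPKM in either library, and over 2-fold was the rule of size. The 68 symbols without WAT values were left out. Depth was estimated from FPKM steps and annotated transcript lengths. Gene lists came from textbook knowledge. The members and lists were chosen with earlier results of these data known. Named were the 15 genes furthest in each direction after adding 1 to each FPKM, and in each list the first 4 members and those past 2-fold with the highest FPKM. A few genes that this rule takes are not reported here. Other named genes were chosen after their values were seen. The script was tested on simulated data. Alternatives varied the pseudocount, the filter, the scaling and the genes of other organs.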

Additional observations from a re-analysis of the deposited data

Results flagged for a closer look

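The 15 genes furthest higher and the 15 furthest lower in WAT were looked up in the other organs. Of these, 6 differed over 2-fold in the opposite direction in at least 1 organ. Genes that differed in the same direction were not counted, and the 6 were not set beside a share over all genes. The organs have 1 library per diet, and none of these differences between organs was tested. Cdkn1a, at 2.98 on the log2 scale in WAT, was at -2.76 in liver (10.4 FPKM in NCD-veh and 1.46 in HFD-veh) and -1.08 in muscle (6.49 and 3.02 FPKM). S100a8, at 3.02 in WAT, was at -2.56 in brown fat (2.79 and 0.389 FPKM) and -1.33 in liver (1.24 and 0.433 FPKM). Cfd, at -3.64 in WAT, was at 5.29 in liver, where it had 0.163 FPKM in NCD-veh and 10.2 in HFD-veh. Pck1, at -2.57 in WAT, was at 1.35 in muscle (4.89 and 12.6 FPKM). Beta-s, listed at 7.11 FPKM in HFD-veh WAT and below 0.01 in NCD-veh, was at -1.35 in brown fat and -1.47 in liver, and it shares sequence with other haemoglobin copies. Farsb, at -4.03 in WAT, was at 3.99 in brown fat, 1.12 in liver and 4.97 in muscle, with NCD-veh values below 0.1 FPKM in brown fat and muscle.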

How the results depend on the processing

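Counts of genes past 2-fold depended on the pseudocount and the filter. They were 390 higher and 230 lower with a pseudocount of 1, 1087 and 846 without a filter, 331 and 216 with an FPKM of at least 5, and 394 and 279 with an FPKM of at least 1 in both libraries. They stayed within 1.5 times of 640 and 472 with a pseudocount of 0.01 (660 and 510), after centring on the median (608 and 502) or scaling to the geometric mean (604 and 504), and without liver-enriched genes (574 and 438) or without liver- and muscle-enriched genes (558 and 429). The share of higher genes among those past 2-fold was 57.6%, and 54.5% after scaling to the geometric mean. The median of the T cell and natural killer list changed sign, from -0.60 to 0.056, with an FPKM of at least 5, where fewer members were left. Medians of 6 other lists, reported between -0.32 and 0.15, also changed sign under some alternatives. With liver-enriched genes left out, those of complement (-0.32 to 0.12), cytokine (0.15 to -0.13), antioxidant (-0.054 to 0.020) and adrenergic genes (-0.033 to 0.055) did so, and those of skeletal muscle (-0.052 to 0.30) with an FPKM of at least 5 and of blood genes (-0.27 to 0.14) without a filter. In all, 373 of 383 medians moved by less than 0.5. Of 1448 ratios of named genes under the alternatives, 1438 kept their side of 2-fold and none changed sign while past 2-fold. No paired analysis was possible because each group has 1 library. At these depths, genes near 1 FPKM rest on limited numbers of fragments that differ by gene. Examples are about 12.8 for Saa1 (1.06 FPKM in HFD-veh) and about 69.2 for Bub1b (0.922 FPKM in NCD-veh). Every difference rests on 1 library per diet, so neither animal variation nor handling can be told apart from diet.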

Other observations

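Further gene groups of the same pair of libraries had the following values, given without explanation. Among 19 kept clock genes, 1 was over 2-fold higher and 4 lower in HFD-veh, with a median log2 ratio of -0.44. Of the 19, 2 reached 1 FPKM in NCD-veh alone and so had to be lower. Among the 17 at 1 FPKM or more in both libraries, 1 was higher and 2 lower. Dbp, an output gene of the clock, was at 45.7 FPKM in NCD-veh and 18.6 in HFD-veh (31.5 in HFD-ncls), and Nr1d1, its repressor REV-ERB alpha, at 137 FPKM in NCD-veh and 65.7 in HFD-veh (40.3 in HFD-ncls). Nfil3, which opposes Dbp, was at 1.00 FPKM in NCD-veh and 3.33 in HFD-veh (5.87 in HFD-ncls). Arntl, a core activator, was at 2.54 FPKM in NCD-veh and 3.23 in HFD-veh (2.15 in HFD-ncls). The hour of tissue collection is not given in the sources used here.

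Immediate-early genes gave 4 higher and none lower of 23 kept, with a median of 0.18. Egr3, 1 of the 4, reached 1 FPKM in HFD-veh alone and so had to be higher. Atf3, a stress-induced factor, was at 2.62 FPKM in NCD-veh and 12.5 in HFD-veh (18.2 in HFD-ncls), a log2 ratio of 2.21, and Fos was at 7.23 FPKM in NCD-veh and 14.9 in HFD-veh (26.3 in HFD-ncls). Of 19 kept glucocorticoid-responsive genes, 3 were higher (Cdkn1a, Ddit4 and Angptl4) and none lower, with a median of 0.47. Fkbp5, a common readout of that hormone, was at 9.98 FPKM in NCD-veh and 16.3 in HFD-veh (22.4 in HFD-ncls). In heat shock and the unfolded protein response, 1 of 34 genes was higher, the chaperone gene Hsph1 at 6.87 FPKM in NCD-veh and 17.7 in HFD-veh (16.3 in HFD-ncls), and the median was 0.18. All 26 kept interferon-stimulated genes were within 2-fold, with a median of -0.05.

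Antioxidant and glutathione genes were divided, with 16 log2 ratios above 0 and 17 below and a median of -0.054 (0.020 without liver-enriched genes). Of the 33 kept, 5 were lower, namely Gpx3, Gsta3, Gsta4, Gstt1 and Gstt3, and 1 was higher. Gsta4, which clears lipid aldehydes, was at 31.4 FPKM in NCD-veh and 9.68 in HFD-veh (9.52 in HFD-ncls). The family holds similar copies, so single levels are uncertain. Hmox1, the haem oxygenase that macrophages induce, was the higher gene, at 19.8 FPKM in NCD-veh and 60.2 in HFD-veh (75.5 in HFD-ncls), a log2 ratio of 1.60.

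Of 22 kept complement genes, 2 were higher and 5 lower, with a median of -0.32. Of these, 9 are liver-enriched, and without them 2 were higher and 3 lower, with a median of 0.12. Vsig4, 1 of the lower genes, reached 1 FPKM in NCD-veh alone and so had to be lower. Besides Cfd, C1ra was at 60.2 FPKM in NCD-veh and 26.6 in HFD-veh (34.5 in HFD-ncls) and C1s, its partner protease, at 138 FPKM in NCD-veh and 63.5 in HFD-veh (77.0 in HFD-ncls). C3ar1 and Itgb2, receptors of leukocytes, were the higher genes, with log2 ratios of 1.31 and 1.44. Among 36 kept nuclear receptors and adipogenic factors, none was higher and 2 were lower, Nr1d1 and Ebf2, a factor of fat precursors, at 11.5 FPKM in NCD-veh and 5.05 in HFD-veh (5.04 in HFD-ncls). Of 25 kept Hox and depot position genes, 3 were lower and none higher, with a median of -0.28. They were Hoxa7, Wt1 and Tcf21, the last at 6.28 FPKM in NCD-veh and 2.37 in HFD-veh (3.33 in HFD-ncls), and the 2 named last are also genes of visceral fat. Angpt1, an angiopoietin that steadies vessels, was the 1 gene past 2-fold of 23 kept in hypoxia and angiogenesis, at 5.68 FPKM in NCD-veh and 1.16 in HFD-veh (1.74 in HFD-ncls). Vegfa was at 55.2 FPKM in NCD-veh and 38.4 in HFD-veh (40.1 in HFD-ncls).

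Brown and beige fat genes gave 3 higher and 1 lower of 10 kept. Of these, 3 reached 1 FPKM in HFD-veh alone, Otop1 and Cpt1b among them, and so had to be higher, and of the 6 at 1 FPKM or more in both libraries 1 was higher and 1 lower. Otop1, a proton channel, was at 0.149 FPKM in NCD-veh and 3.67 in HFD-veh (3.66 in HFD-ncls). Of 75 kept cytosolic ribosomal protein genes, 73 were within 2-fold, with a median of -0.10, and the others were Rpl26, listed near 0 in HFD-veh, and Rpl30, at 5.71 FPKM in NCD-veh and 18.6 in HFD-veh (15.8 in HFD-ncls). Of 4 kept B cell and lymph node genes, 3 were lower, but 2 of the 4 reached 1 FPKM in NCD-veh alone and so had to be lower. Of the other 2, 1 was over 2-fold lower, and both blood genes kept were within 2-fold, with Hbb-b1 at 569 FPKM in NCD-veh and 483 in HFD-veh (474 in HFD-ncls).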
